A study of Homo sapiens with 20 samples.

Results

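L363 myeloma cells that had become resistant to carfilzomib (CfzR) were compared directly with L363 cells that had become resistant to bortezomib (BtzR), gene by gene and without the parental cells in between. The comparison used the 4 RNA-seq libraries of these groups, 2 replicates each, out of the 20 libraries of the series. It covered the 10793 of 18305 listed genes with a mean of at least 1 FPKM (fragments per kilobase of transcript, scaled to the number of mapped fragments) in either group. CfzR cells were grown in 90 nM carfilzomib and BtzR cells in 90 nM bortezomib, in the same medium, and the L363 wild-type (WT) cells shown beside them were grown without drug. L363 is a line from a plasma cell leukaemia, and no engineered allele is named for any of these groups. The study grew resistant sublines of myeloma and lymphoblastoid lines to ask how the cell surface of plasma cells changes with resistance to proteasome inhibitors. Each drug is represented in L363 by a subline evolved in culture, so that an effect of the drug and a chance difference between sublines cannot be told apart. The labels call the libraries replicates and name no separate evolutions or cultures, so the p-values measure the spread between libraries of a subline, which may be technical. In such bulk RNA, fewer cells that express a gene and less of its RNA per cell cannot be told apart.

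Bortezomib and carfilzomib both block the chymotrypsin-like site of the proteasome, which lies on the subunit encoded by PSMB5. Bortezomib is a boronic acid that binds the site reversibly, whereas carfilzomib is a peptide epoxyketone that binds it irreversibly. Plasma cells depend on the proteasome because they make large amounts of secreted protein, and known routes to resistance in culture include a change in the target subunit and export of the drug by membrane pumps such as P-glycoprotein, the product of ABCB1.

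Total FPKM over the listed genes ran from 462467 to 479782 in the 4 libraries, and 10542 to 10673 genes reached 1 FPKM in each. Pearson's r of log2(FPKM + 1) across tested genes was 0.996 between the BtzR replicates, 0.994 between the CfzR replicates and 0.980 to 0.982 between libraries of different groups. All 12 plasma cell markers on the marker list were expressed, with SDC1 (CD138) at 188 to 221 FPKM, IRF4 at 208 to 244 and XBP1 at 615 to 733 in the 4 libraries. The summed level of the 12 genes was 6245 to 6707 FPKM in BtzR and 5879 to 6387 in CfzR, and none of them was called. MS4A1 (CD20), CD3D and CD14, which define B cells, T cells and monocytes, stayed at or under 0.08 FPKM. Of the 10 B-cell markers only CD79B was tested. Of the other lists, CD4 and KLRD1 were tested for T and NK cells, LYZ and CD68 for myeloid cells and PECAM1 for stromal, endothelial and epithelial cells, and none of these 6 genes was called. CD4 was at 47.1 and 44.8 FPKM in BtzR, 29.5 and 32.8 in CfzR and 6.91 and 5.34 in WT (log2-fold change -0.55, adjusted p = 0.0043). The summed level of the T and NK list was 50.2 to 51.3 FPKM in BtzR and 33.3 to 37.6 in CfzR, nearly all of it CD4. The sums of the B-cell list were 18.5 to 23.3 and 19.7 to 20.9, those of the myeloid list 5.48 to 5.66 and 6.15 to 7.59, those of the stromal list 3.23 to 3.58 and 2.88 to 3.80, and those of the erythroid list at most 0.12 and 0.50. The part of these markers in the results was not tested. The 2 libraries labelled AMO1 CfzR correlated with the L363 libraries at r of 0.980 to 0.987 and with AMO1 WT at no more than 0.870. They entered the fit only through the estimate of the spread, and without them 123 and 71 genes were called in place of 124 and 71.

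Calls required a log2-fold change of at least 1 on the log2(FPKM + 1) scale and, from limma's moderated test, a p under 0.05 after Benjamini-Hochberg adjustment. In all, 195 genes were called, which is 1.81% of those tested. Of these, 124 (1.15%) were higher in CfzR and 71 (0.658%) were lower. At an adjusted p under 0.05 and any size of change, 411 genes (3.81%) were higher in CfzR and 367 (3.4%) lower. The median log2-fold change of all tested genes was -0.01. The WT cells show which subline lay farther from the parental level. Their values entered the calls only through the estimate of the spread, although genes were later grouped, and some named, by them. Among the 71 genes lower in CfzR, WT lay nearer to CfzR for 47, nearer to BtzR for 6 and within 0.5 of the midpoint for 18. Among the 124 genes higher in CfzR, WT lay nearer to CfzR for 25, nearer to BtzR for 33 and near the midpoint for 66. The fixed band of 0.5 places many genes with a difference close to 1 near the midpoint wherever WT lies, such as SELPLG, where CfzR differed from WT by 0.08 and BtzR by -1.02, so these counts also follow the size of the difference.

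**Figure D1:**
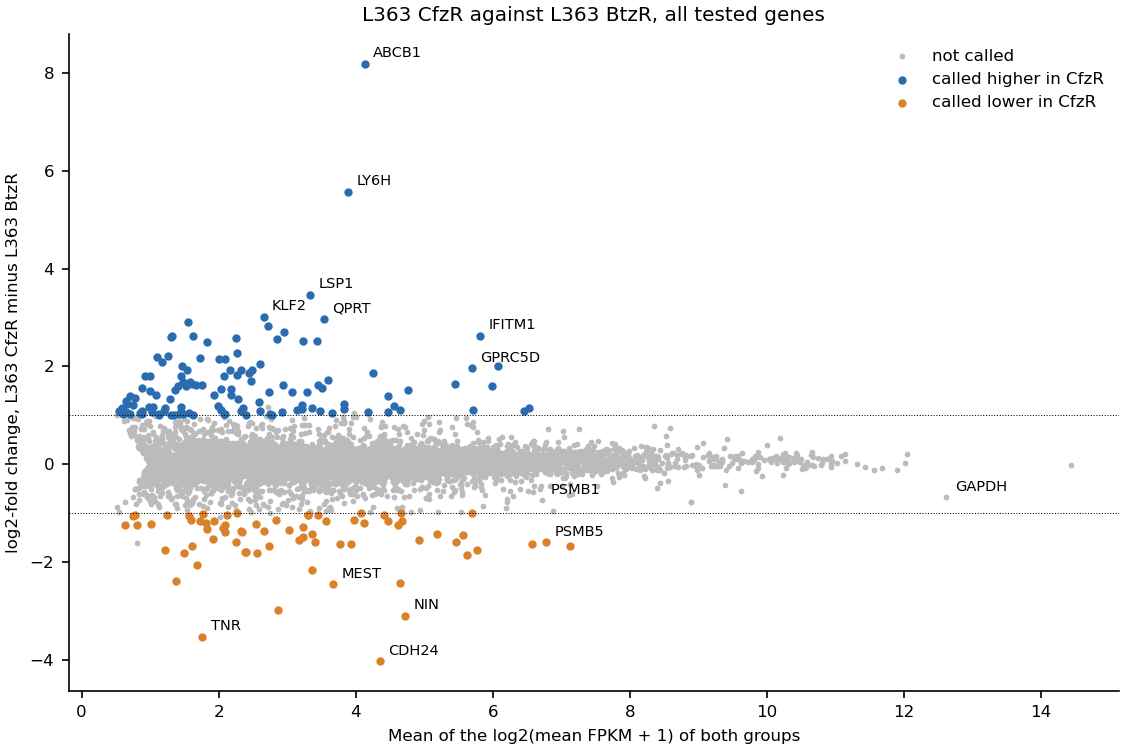
Each point is a tested gene, with its mean level in both groups on the x axis (log2 of mean FPKM + 1) and the log2-fold change of CfzR over BtzR on the y axis. Blue points are the 124 genes called higher in CfzR and orange points the 71 called lower. ABCB1, at 8.20, stands above all others, and CDH24, at -4.03, below all others.

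The largest difference between the sublines was in the drug pump. ABCB1 (NCBI gene 5243, chromosome 7) was at 288 and 312 FPKM in the CfzR libraries, at 0.01 and 0.03 in the BtzR libraries and at 0.10 and 0.00 in WT. The CfzR libraries lie far above the other 4, which lie at the bottom of the measured range. The log2-fold change was 8.20 ± 0.10 (SE, n = 2 against 2) with an adjusted p of 3.2e-17 by limma, and this scale understates the change of a gene that is near 0 in the other group. ABCB1 was the only called gene among the 9 tested of 13 ABC transporters linked to drug export, whose median log2-fold change was 0.07. ABCA2, a lysosomal lipid transporter, was at 3.84 and 3.39 FPKM in BtzR and 8.66 and 7.60 in CfzR (log2-fold change 0.98, adjusted p = 1.2e-05), just under the fold threshold. The other 7, among them ABCC1 and ABCC4, had log2-fold changes between -0.21 and 0.25 and adjusted p from 0.35.

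The proteasome target went the other way. PSMB5 (NCBI gene 5693, chromosome 14), the subunit that both drugs bind, was at 192 and 187 FPKM in the BtzR libraries, at 66.4 and 58.1 in the CfzR libraries and at 60.1 and 53.0 in WT. Both BtzR libraries lie above all 4 others, and the CfzR and WT values are close together. The level in BtzR was 3.05 times that in CfzR, with a log2-fold change of -1.60 ± 0.17 (adjusted p = 1.4e-05). The remaining catalytic subunits PSMB6 and PSMB7 had log2-fold changes of 0.09 and 0.08 (adjusted p = 0.83 and 0.81). Among immunoproteasome subunits, PSMB8 was higher in CfzR by 0.42 (adjusted p = 0.015), and PSMB9 and PSMB10 did not pass the test. PSMB5 was the only called gene among the 8 of this list, whose median was 0.08.

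The sequences upstream of ABCB1 and PSMB5 are shown because these genes gave the clearest difference in pump and target, and those of KLF2 and S1PR1 because both were higher in CfzR and KLF2 is known to activate S1PR1 in lymphocytes. Each run is the 250 bases before an annotated gene start in RefSeq (GRCh38.p14), 5′ to 3′ on the gene's strand. For ABCB1 and PSMB5 the annotation gives 2 starts, and the more downstream start is shown. Which start the cells used was not measured. Capitals mark matches on either strand to the CCAAT box (CCAAT or ATTGG), the GC box (GGGCGG or CCGCCC) and the CACCC box (CACCC or GGGTG), a motif of KLF factors. No letters of these motifs are shared between boxes in these runs.
ABCB1, chr7:87600885-87601134, minus strand: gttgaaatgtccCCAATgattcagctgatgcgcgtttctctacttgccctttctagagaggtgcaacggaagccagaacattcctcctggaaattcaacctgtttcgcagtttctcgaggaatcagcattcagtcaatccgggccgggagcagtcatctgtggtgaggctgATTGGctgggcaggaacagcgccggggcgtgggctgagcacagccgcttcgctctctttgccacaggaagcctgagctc
PSMB5, chr14:23034901-23035150, minus strand: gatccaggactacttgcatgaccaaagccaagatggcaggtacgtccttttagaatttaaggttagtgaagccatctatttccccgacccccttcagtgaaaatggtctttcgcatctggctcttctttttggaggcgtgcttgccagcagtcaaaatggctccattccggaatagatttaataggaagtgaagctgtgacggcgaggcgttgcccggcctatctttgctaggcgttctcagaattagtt
KLF2, chr19:16324576-16324825, plus strand: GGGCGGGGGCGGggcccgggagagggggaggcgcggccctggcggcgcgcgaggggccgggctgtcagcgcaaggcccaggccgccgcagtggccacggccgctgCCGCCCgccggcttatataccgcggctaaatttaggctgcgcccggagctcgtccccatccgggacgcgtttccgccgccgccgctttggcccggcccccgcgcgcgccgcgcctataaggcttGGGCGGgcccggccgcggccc
S1PR1, chr1:101236769-101237018, plus strand: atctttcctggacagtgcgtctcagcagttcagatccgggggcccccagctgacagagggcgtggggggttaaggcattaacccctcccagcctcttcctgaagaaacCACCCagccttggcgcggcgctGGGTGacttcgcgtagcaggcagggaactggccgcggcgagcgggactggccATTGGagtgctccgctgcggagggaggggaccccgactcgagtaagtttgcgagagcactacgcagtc

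The ABCB1 run held 2 CCAAT matches, 1 in each orientation, and none to the other boxes. The PSMB5 run held no match to any of them, the KLF2 run held 4 GC boxes, and the S1PR1 run held 2 CACCC matches and 1 CCAAT match. A CCAAT match was present in 32% of the 35116 windows of the same length in the table, a GC box in 42.6% and a CACCC match in 54.7%, so each of these matches is common. These matches are a description of the letters and were not tied to any measurement here.

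PSMB5 did not differ alone. When tested genes with a mean of at least 2 FPKM were placed in RefSeq gene order and smoothed by a running median of 11 genes, 6 runs of at least 5 consecutive genes had a running median of 0.4 or more in size. These 6 blocks hold 118 tested genes, which is 1.09% of all, and 32 of the 71 genes called lower in CfzR (45.1%) and 6 of the 124 called higher (4.84%). The blocks were looked for after the values had been seen, and the counts describe them without a test. By their medians, BtzR was the higher subline in 5 blocks and CfzR lay close to WT, and in the block that holds ABCB1 CfzR was the higher and BtzR lay close to WT.

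Chromosome 14 held 28 of the 71 genes called lower in CfzR (39.4%) and 3.22% of the tested genes. The block around PSMB5 runs over 9 tested genes, from LRP10 to CDH24, and in all 9 BtzR was higher (each at an adjusted p under 0.05), with 8 called and a median log2-fold change of -1.60. The median of BtzR minus WT over these genes was 1.75 and that of CfzR minus WT 0.09. PRMT5, an arginine methyltransferase of histones and splicing factors, was at 244 and 256 FPKM in BtzR and at 81.9 and 72.8 in CfzR. HAUS4, a subunit of the augmin complex of the spindle, was at 101.04 and 96.6 against 27.9 and 29.7. RBM23, an RNA-binding protein, was at 92.6 and 94.7 against 25.5 and 24.3. For these 3 genes, as for PSMB5, the BtzR level is 3 to 4 times the CfzR level. REM2, a small GTPase at 1.34 and 1.29 FPKM in BtzR, was the member that stayed under the fold threshold (log2-fold change -0.62).

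CDH24, a cadherin and the last gene of the block, differed far more than its neighbours. It was at 84.1 and 79.7 FPKM in BtzR, at 4.13 and 4.0 in CfzR and at 2.52 and 3.10 in WT, a level 20.1 times higher in BtzR than in CfzR (log2-fold change -4.03 ± 0.14, adjusted p = 4.7e-11). The edges of the block were sharp. MRPL52, the tested gene before LRP10, was at 24.8 and 21.8 FPKM in BtzR and 28.1 and 23.7 in CfzR (0.14, adjusted p = 0.76), and ACIN1, the tested gene after CDH24, at 73.5 and 76.4 against 67.7 and 67.6 (-0.15, adjusted p = 0.66).

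Farther along chromosome 14, all 27 tested genes from C14orf28 to TMX1 were higher in BtzR, each at an adjusted p under 0.05, with 19 called and a median log2-fold change of -1.23. BtzR exceeded WT by a median of 1.25 over these genes and CfzR differed from WT by a median of -0.00. FBXO33 before the block (0.00, adjusted p = 1) and FRMD6 after it (0.18, adjusted p = 0.68) did not pass the test. FKBP3, a nuclear FK506-binding protein, was at 167 and 166 FPKM in BtzR and 49.6 and 56.3 in CfzR, and FANCM, a helicase of the Fanconi anaemia pathway, at 13.8 and 14.9 against 4.39 and 4.12. From RPS29 to KLHDC2 the differences were smaller, between -0.77 and -1.01. Near the far end they were larger again. MAP4K5, a kinase upstream of JNK, was at 54.6 and 59.8 FPKM in BtzR and 9.71 and 9.74 in CfzR. SAV1, a scaffold of the Hippo pathway, was at 19.9 and 21.5 against 3.49 and 4.28. NIN, which encodes the centrosomal protein ninein, was at 73.9 and 79.0 against 7.99 and 8.08 (log2-fold change -3.10 ± 0.11, adjusted p = 3.8e-11). NIN in BtzR was thus 9.51 times its level in CfzR, where it was close to WT (7.66 and 8.19). DHRS7, an oxidoreductase on the same chromosome but outside the blocks, was also called (33.3 and 30.9 against 14.2 and 13.5 FPKM).

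**Figure D2:**
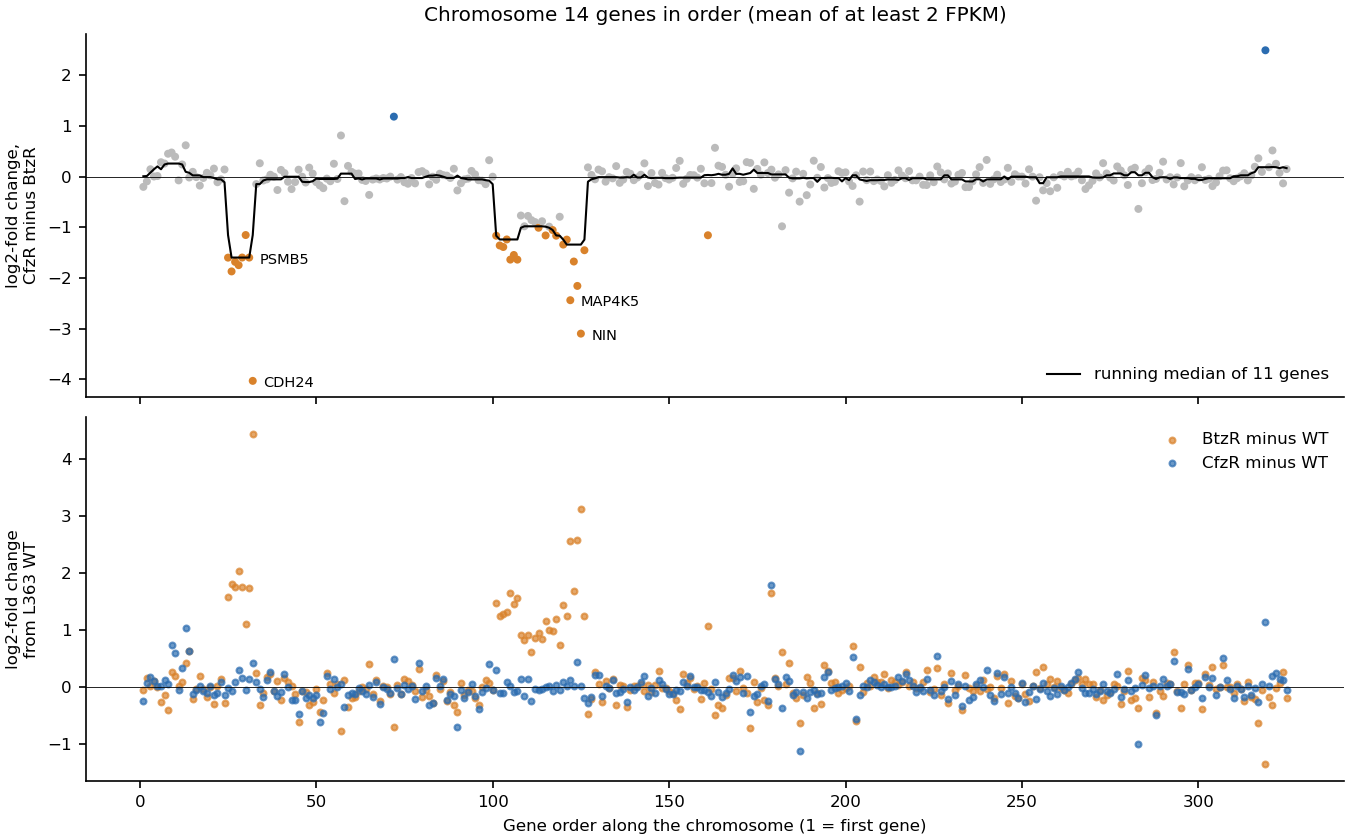
Genes of chromosome 14 with a mean of at least 2 FPKM are drawn in order along the x axis, with the log2-fold change of CfzR over BtzR above (orange, called lower; blue, called higher; grey, not called) and the change of each subline from WT below. The 2 dips of the running median, which reach -1.60 and -1.34, hold LRP10 to CDH24 and C14orf28 to TMX1, and in both the BtzR points leave WT while the CfzR points stay near 0.

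The remaining 3 blocks with higher levels in BtzR showed smaller steps. At the end of chromosome 6, 13 of the 14 tested genes from QKI to PDCD2 were higher in BtzR at an adjusted p under 0.05, with a median of -0.88, and only MPC1 (the mitochondrial pyruvate carrier) and WDR27 passed the fold threshold. This block holds PSMB1, a further subunit of the proteasome core, at 142 and 128 FPKM in BtzR and 82.2 and 78.5 in CfzR, against 80.2 and 77.1 in WT (log2-fold change -0.73 ± 0.09, adjusted p = 6.1e-05). TBP, the TATA-binding protein, was at 15.8 and 15.4 against 7.72 and 7.36. AFDN was the exception, at 1.17 and 1.2 FPKM in BtzR and 1.39 and 1.53 in CfzR. On chromosome 12, 43 of 46 tested genes from IFFO1 to ETV6 had a negative log2-fold change, 28 of them at an adjusted p under 0.05, with a median of -0.56 and with CLEC2B and PHC1 called. PTPN6, the phosphatase SHP-1, lay within it and was higher in CfzR (0.78, adjusted p = 0.015). Single genes of this block were also above WT in CfzR, among them CD4 (2.18, adjusted p = 3.7e-09), ENO2 (0.92), GPR162 (0.91) and PTMS (0.79). On chromosome 13, 7 of 10 tested genes from INTS6 to HNRNPA1L2 were lower in CfzR at an adjusted p under 0.05, none was called and the median was -0.54. The medians of CfzR minus WT were 0.01, 0.07 and 0.00 in these 3 blocks, and those of BtzR minus WT 0.90, 0.62 and 0.57. The medians of all 6 blocks kept their sign when libraries were rescaled to the same sum or quantile normalized. This check could hardly have failed, because the blocks were selected for the size of their medians. The smallest of these in size was -0.54, while the median of all tested genes went from -0.01 to -0.04 and -0.02 under the rescalings. The kept signs are therefore no evidence that the blocks are robust.

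ABCB1 also had neighbours that differed. The block on chromosome 7 runs over 12 tested genes from TMEM60 to ADAM22, of which 9 were higher in CfzR and 3 lower, all at an adjusted p under 0.05, with 6 and 1 called. The median was 0.98, that of CfzR minus WT 0.94 and that of BtzR minus WT -0.04. SEMA3C, a secreted semaphorin, was at 23.5 and 26.5 FPKM in CfzR, 3.54 and 3.49 in BtzR and 4.29 and 4.86 in WT (log2-fold change 2.52 ± 0.19, adjusted p = 2.3e-07). TMEM60 and PHTF2, both membrane proteins of unclear role, were at 40.6 and 49.0 and at 34.1 and 36.1 FPKM in CfzR, against 15.9 and 13.96 and 12.6 and 12.8 in BtzR. TMEM243 (36.4 and 35.3 against 15.5 and 16.7) and SEMA3A (6.95 and 8.70 against 3.25 and 3.07) were also called, while DMTF1 (0.82), CROT (0.54) and ADAM22 (0.88) stayed under the fold threshold. The neighbours with higher levels in CfzR ranged from CROT at 1.57 times to TMEM60 at 3 times the BtzR level, apart from SEMA3C at 7.10 times, whereas ABCB1 itself went from near 0 to a mean of 299.9 FPKM.

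The genes next to ABCB1 were not all higher. Of the 10 protein-coding genes on each side of ABCB1 in RefSeq order, 9 were tested, and of these SEMA3A and TMEM243 were called higher and KIAA1324L (now ELAPOR2) lower. SLC25A40, a mitochondrial carrier, was at 9.88 and 10.3 FPKM in CfzR against 16.2 and 16.6 in BtzR (log2-fold change -0.65, adjusted p = 0.011), and DBF4, the activator of the replication kinase CDC7, at 25.5 and 25.9 against 32.7 and 39.3 (-0.47, adjusted p = 0.0036). Beyond them, ADAM22 and SRI (75.1 and 64.5 FPKM in CfzR, 39.0 and 36.8 in BtzR) were higher in CfzR again. ABCB4, the adjacent phospholipid pump, reached only 0.23 and 0.19 FPKM in CfzR and was listed at 0 in both BtzR libraries. RUNDC3B, the adjacent gene on the other side, was at 0.00 and 0.05 FPKM in CfzR. KIAA1324L differed because of BtzR, where it was at 1.49 and 1.39 FPKM against 0.14 and 0.20 in CfzR and 0.12 and 0.04 in WT. The high level in CfzR was thus seen in ABCB1 and not in the genes that directly flank it.

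**Figure D3:**
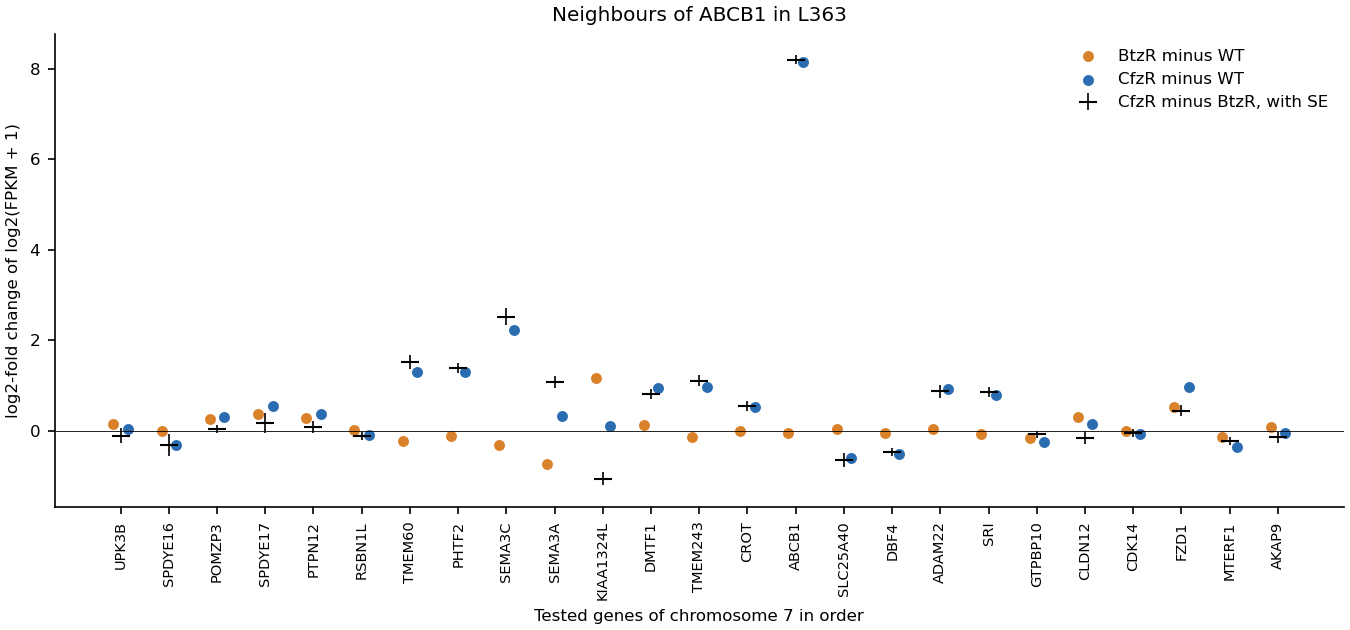
Tested genes of chromosome 7 around ABCB1 are drawn in order along the x axis, with the log2-fold change of BtzR from WT (orange), of CfzR from WT (blue) and of CfzR over BtzR (black, with SE) on the y axis. Blue points rise above 0 from TMEM60 to SRI, with SLC25A40 and DBF4 below 0 and ABCB1 far above, at 8.16 in blue and 8.20 in black.

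Among the 15 genes with the largest difference toward CfzR, WT lay nearer to CfzR for 5, nearer to BtzR for 5 and near the midpoint for 5. In the set where WT lay nearer to CfzR, BtzR lay below WT, which follows from how the set was formed. LSP1, an actin-binding protein of leukocytes, was at 2.02 and 2.04 FPKM in BtzR, at 30.8 and 34.7 in CfzR and at 30.6 and 25.9 in WT (log2-fold change 3.47 ± 0.23, adjusted p = 5.8e-08). IFITM1, an interferon-induced membrane protein, was at 23.5 and 19.95 in BtzR, 146 and 133 in CfzR and 115 and 78.4 in WT. MYOM2, a protein of the muscle M-band, was at 0.82 and 1.07 against 8.81 and 12.8 in CfzR. LRMP, an endoplasmic reticulum membrane protein of lymphoid cells, was at 0.22 and 0.25 FPKM in BtzR, 5.28 and 8.26 in CfzR and 21.9 and 23.7 in WT, so that both sublines lay under the parent. KLF2 belongs to this set and is described with S1PR1 below.

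A second set was higher in CfzR than in both BtzR and WT, which lay close together. EFEMP1, the extracellular matrix protein fibulin-3, was at 7.68 and 6.42 FPKM in CfzR and at 0.06 and 0.06 in BtzR, with 0.20 and 0.13 in WT. SLPI, a secreted inhibitor of leukocyte proteases, was at 4.91 and 5.31 in CfzR and listed at 0 in both BtzR libraries, with 0.19 and 0.29 in WT. S1PR1, ABCB1 and SEMA3C complete this set. In the third set WT lay between the sublines. LY6H, a membrane-anchored protein of the LY6 family, was at 89.0 and 104 FPKM in CfzR, at 0.25 and 2.29 in BtzR and at 12.9 and 19.8 in WT (log2-fold change 5.58 ± 0.37, adjusted p = 5.8e-08). The BtzR libraries of LY6H differ from each other, yet both lie far under WT. QPRT, which makes a precursor of NAD from quinolinate, was at 28.7 and 34.4 in CfzR, 2.83 and 3.42 in BtzR and 13.9 and 14.96 in WT. MDK (the growth factor midkine, 11.3 times higher in CfzR), H1F0 (a linker histone, 9.51 times) and MYBPC2 (a myosin-binding protein, 8.47 times) followed the same order of CfzR, WT and BtzR.

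The 15 genes with the largest difference toward BtzR were of another kind. For 12 of them WT lay nearer to CfzR, and CDH24, NIN, MAP4K5, SAV1 and RBM23 come from the blocks on chromosome 14. TNR, the extracellular matrix protein tenascin-R, was at 10.6 and 10.4 FPKM in BtzR, listed at 0 in both CfzR libraries and at 0.01 and 0.01 in WT. SOHLH1, a germ-cell transcription factor, was at 21.1 and 18.03 in BtzR, 1.81 and 1.37 in CfzR and 0.61 and 0.44 in WT (12.3 times higher in BtzR). RUBCNL, a regulator of autophagosome maturation, was at 9.08 and 11.1 against 1.88 and 2.42, MYH10, a non-muscle myosin heavy chain, at 3.13 and 3.42 against 0.20 and 0.32, and JAM2, a junctional adhesion molecule, at 8.14 and 9.34 against 1.61 and 2.03. MEST went the other way from WT. This imprinted gene of the hydrolase fold family was at 26.4 and 31.3 FPKM in BtzR and 27.4 and 31.5 in WT, and at 4.07 and 4.73 in CfzR (log2-fold change -2.46 ± 0.11, adjusted p = 1.2e-09), so that it fell in CfzR against WT (log2-fold change -2.49), while BtzR differed from WT by -0.03 (adjusted p = 0.9). ST5, an exchange factor for Rab GTPases, and SEPTIN1, a septin of lymphoid cells, lay near the midpoint, with WT between the sublines. TUBA3C and SSX4B, the others of the 15, have near-identical copies elsewhere in the genome, and their values are uncertain for that reason. The call of SSX4B was lost when any of the 4 libraries was left out, at log2-fold changes from -1.73 to -1.89.

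**Figure D4:**
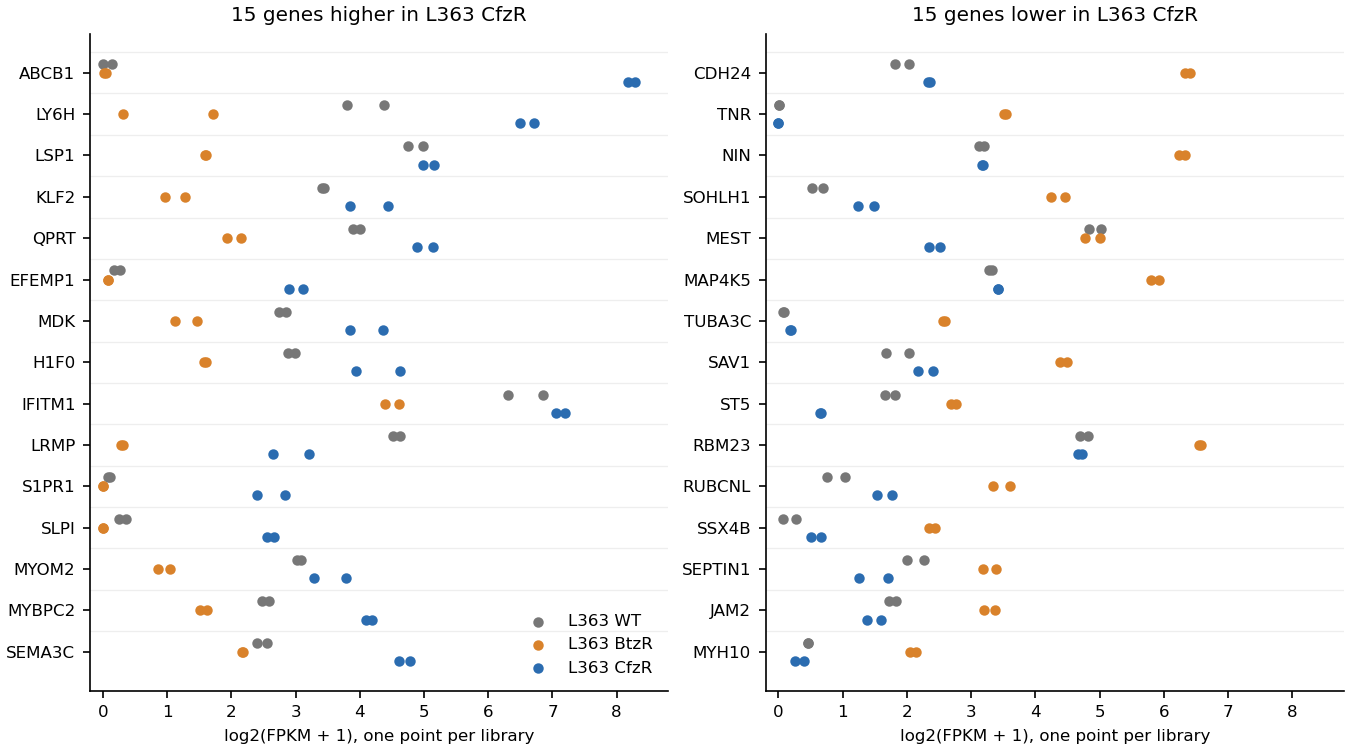
Levels of the 15 genes with the largest difference in each direction are drawn as log2(FPKM + 1) on the x axis, with a point for each of the 2 libraries of WT (grey), BtzR (orange) and CfzR (blue). In the left panel BtzR is the lowest or level with WT, and in the right panel CfzR lies with WT for most genes, with MEST the clearest exception.

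Membrane proteins that are targets or markers of myeloma differed in part between the sublines. Of 26 tested target antigens, 3 were called, all higher in CfzR, against 1.15% of all tested genes called in that direction, and the list median was 0.17. GPRC5D, an orphan receptor targeted by bispecific antibodies, was at 92.8 and 108 FPKM in CfzR, 29.2 and 21.4 in BtzR and 59.1 and 51.4 in WT (log2-fold change 1.96 ± 0.20, adjusted p = 7.1e-06). IL6R, the receptor chain for the myeloma growth factor interleukin-6, was at 19.8 and 22.6 in CfzR, 5.35 and 5.97 in BtzR and 13.5 and 11.6 in WT (adjusted p = 4.9e-07). SELPLG, the ligand of P-selectin, was at 71.5 and 80.9 in CfzR, 37.5 and 32.2 in BtzR and 72.3 and 71.0 in WT (adjusted p = 8.5e-06), and its call was lost without BtzR replicate 2, at 1.00. In each of these 3 the CfzR and BtzR libraries do not overlap, which with so few libraries can also happen in genes without a difference. The share of all tested genes without such overlap was not counted. TNFRSF17 (BCMA) was at 153 and 174 FPKM in CfzR and 100.9 and 103 in BtzR (0.68, adjusted p = 0.0063), under the fold threshold. SLAMF7 (106 and 124 against 172 and 180, adjusted p = 0.0098) and CD46 (47.3 and 58.5 against 95.9 and 102, adjusted p = 0.00028) were lower in CfzR, also under it. SDC1 (-0.14, adjusted p = 0.79) and CD38 (0.45, adjusted p = 0.43) did not pass the test.

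A list of 14 genes was taken from the study's text and figures, where they appear in connection with resistance, acute drug treatment or RNA set against protein, and 10 of them were tested here. The study drew in part on these lines, so the values are not independent evidence. Its directions are for surface protein in resistant lines, pooled, against parental lines. Among them CD50, CD53 and ITGB7 were lower and CD10 and CD151 higher with both drugs. The RNA followed these only in part. Log2-fold changes from WT in BtzR and CfzR were 0.59 and -0.19 for ICAM3 and 0.11 and -0.55 for CD53. They were -0.03 and 0.67 for ITGB7, -0.36 and 1.65 for MME and -0.26 and -0.16 for CD151. ABCB1 and MME were called, both higher in CfzR. MME, the membrane peptidase CD10, was at 4.05 and 5.0 FPKM in CfzR, 0.20 and 0.56 in BtzR and 0.76 and 0.76 in WT (log2-fold change 2.01 ± 0.19, adjusted p = 2.4e-06). CD53, a leukocyte tetraspanin, was at 54.6 and 68.7 in CfzR and 98.3 and 96.5 in BtzR (-0.66, adjusted p = 0.02). ICAM3 (CD50), a leukocyte adhesion molecule, was at 56.8 and 54.3 in CfzR and 108 and 84.5 in BtzR (-0.77, adjusted p = 0.0019). Both differences stayed under the fold threshold. The 6 others were not separated by the test. ITGB7, the integrin chain of gut-homing lymphocytes, was at 199 and 191 FPKM in CfzR against 121 and 117 in BtzR (0.71, adjusted p = 0.091), and NCAM2 had a log2-fold change of 0.64 (adjusted p = 0.17). CD99 (0.15), CD151 (0.10), SERINC3 (0.07) and SEMA4A (-0.00) had adjusted p from 0.67 to 1.

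KLF2 and S1PR1 were both higher in CfzR. KLF2, a zinc-finger transcription factor of resting and circulating lymphocytes, was at 13.5 and 20.8 FPKM in CfzR, 0.96 and 1.44 in BtzR and 9.68 and 9.92 in WT (log2-fold change 3.02 ± 0.22, adjusted p = 1.6e-07). S1PR1, the sphingosine 1-phosphate receptor that guides exit from lymphoid tissue, was at 4.29 and 6.15 in CfzR and listed at 0 in both BtzR libraries, with 0.08 and 0.06 in WT (adjusted p = 1.3e-08). KLF2 was thus lowest in BtzR while S1PR1 was high only in the CfzR libraries of L363. KLF2 and SPIB were called among 23 tested plasma and B-cell transcription factors (list median 0.03), against 1.15% of all tested genes called higher. SPIB, an ETS factor of B cells, had a log2-fold change of 1.02 (adjusted p = 0.00057). Its value was 0.84 without CfzR replicate 2 and 0.94 without BtzR replicate 2, both under the fold threshold. Among 29 tested adhesion and leukocyte membrane genes, S1PR1, SELPLG and ITGB5 (4.88 and 4.48 FPKM in CfzR, 0.44 and 0.56 in BtzR) were called, all higher in CfzR, where 1.15% of all tested genes were called in that direction. In the same list ITGA6 (-0.89, adjusted p = 5.8e-05) and ITGA8 (-0.67, adjusted p = 0.00012) were lower in CfzR under the fold threshold, and the list median was 0.07.

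Death and cytokine receptors gave calls in both directions. For the counts below, 1.15% of all tested genes were called higher in CfzR and 0.658% lower. TNFRSF1B, which encodes TNF receptor 2, was at 8.55 and 9.02 FPKM in CfzR, 1.48 and 1.65 in BtzR and 10.7 and 11.9 in WT (log2-fold change 1.93, adjusted p = 1.1e-07). TNFRSF21 (death receptor 6) was at 0.21 and 0.16 in CfzR and 1.12 and 1.82 in BtzR (-1.05, adjusted p = 0.00046), with the call lost at -0.84 without BtzR replicate 2. They were the calls among 24 tested TNF receptors, ligands and NF-kappaB feedback genes, with a list median of -0.09. Of 14 tested BCL2 family genes only BIK, a BH3-only killer protein, was called, at 2.38 and 3.42 FPKM in CfzR and 0.43 and 0.63 in BtzR (1.34, adjusted p = 2.8e-06), and the list median was 0.02. Of 35 tested proliferation genes only CDKN1A, the cell cycle inhibitor p21, was called. It was at 5.33 and 6.67 FPKM in CfzR and 1.16 and 1.67 in BtzR (1.54, adjusted p = 0.024), and at 32.8 and 36.5 in WT, so that both sublines lay under the parent. The call was lost when any of the 4 libraries was left out, with log2-fold changes from 1.38 to 1.69. JUN (3.4 and 3.3 against 1.08 and 1.27 FPKM) was called higher and PHLDA1 (9.82 and 12.02 against 21.4 and 24.4) lower among 13 tested RAS-MAPK feedback genes, both at the edge of the fold threshold. The call of JUN was lost at 0.98 without CfzR replicate 1 and at 0.94 without BtzR replicate 1, and that of PHLDA1 at -0.87 without CfzR replicate 1 and at -0.91 without BtzR replicate 2.

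The protein quality control genes gave few calls. Outside PSMB5, none of the 34 tested 26S proteasome subunits and assembly factors was called. Of these, 33 had a positive log2-fold change and PSMB1 alone a negative one, and the list median was 0.14 against -0.01 for all genes (0.11 and 0.09 when rescaled to the same sum and quantile normalized). The largest of the 33, those of ADRM1, PSMA3 and PSMB3, were each 0.31, with CfzR levels 1.25, 1.24 and 1.24 times those of BtzR, and PSMB1 was the only member of this list at an adjusted p under 0.05. Against WT, the list median was -0.20 in BtzR and -0.06 in CfzR. Of 30 tested genes of folding and degradation in the endoplasmic reticulum none was called or reached an adjusted p under 0.05, with HERPUD1 the largest at 0.55 and a list median of 0.10. Of 31 tested ATF4 and stress response genes none was called either. STC2, a secreted glycoprotein, came closest, at 8.13 and 9.73 FPKM in CfzR and 2.93 and 3.90 in BtzR (1.17, adjusted p = 0.051), and ATF3 (0.94) and DDIT4 did not pass the test. Of 18 tested cytosolic chaperones only HSPA1A, an inducible HSP70, was called (1.18, adjusted p = 0.023), on CfzR libraries that lie apart at 47.3 and 23.5 FPKM, against 13.6 and 14.7 in BtzR. Without CfzR replicate 1 its log2-fold change was 0.69 and the call was lost, as it was at 1.13 and 1.24 without BtzR replicate 1 or 2. Its near-identical copy HSPA1B was at 37.5 and 25.9 against 26.7 and 29.8. Of 25 tested glutathione, thioredoxin and NRF2 genes none was called, and the list median was 0.02, with PGD at 0.26 (adjusted p = 0.039) and HMOX1 at 0.69 (adjusted p = 0.56).

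Metabolic lists leaned in part toward CfzR. Of 22 tested genes of cholesterol synthesis and uptake, 21 had a positive log2-fold change. The list median was 0.42, the highest of the 21 gene lists other than marker lists, and stayed between 0.39 and 0.40 under both rescalings. INSIG1, the sterol sensor that holds back cholesterol synthesis, was called at 125 and 128 FPKM in CfzR, 59.4 and 58.6 in BtzR and 88.3 and 93.0 in WT (1.08, adjusted p = 0.024). Its call was lost when any of the 4 libraries was left out, with log2-fold changes of 1.07 to 1.10. FDFT1, FDPS and MVK, all enzymes of the pathway, were higher in CfzR by 0.44 to 0.57 with adjusted p from 0.023 to 0.045. Against WT the list median was 0.45 in CfzR and -0.05 in BtzR. No gene was called among 25 tested glycolysis genes, whose median was 0.09. GAPDH (4934 and 5025 FPKM in CfzR, 7895 and 7961 in BtzR, 4860 and 4893 in WT) and TPI1 (632 and 663 against 986 and 910) were lower in CfzR at adjusted p of 0.00016 and 0.0019. Both lie on chromosome 12, TPI1 within the block from IFFO1 to ETV6 and GAPDH as the tested gene just before it.

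Few antigen presentation genes were called, and the class I and class II lists were not tested against each other. Among 13 tested HLA class I and peptide loading genes, 10 had a positive log2-fold change, none was called and the median was 0.37. The peptide transporter TAP1 was at 29.8 and 36.2 FPKM in CfzR, 19.1 and 18.2 in BtzR and 30.1 and 29.3 in WT (0.79, adjusted p = 0.00023). HLA-B, B2M and NLRC5 were also higher in CfzR at adjusted p of 0.0032, 0.012 and 0.00031. Class II genes had list medians below WT in both sublines (-1.25 in CfzR and -0.97 in BtzR), and 9 of 12 tested members had a negative log2-fold change in CfzR against BtzR (median -0.27). Of these HLA-DRB1 was called, at 10.3 and 17.8 FPKM in CfzR and 27.3 and 31.0 in BtzR (-1.04, adjusted p = 0.0031), and HLA-DPA1 was lower under the fold threshold (-0.70, adjusted p = 0.0027). HLA-DRB1 has close relatives, and HLA-DRB5 had a log2-fold change of -0.29 (adjusted p = 0.44). Without CfzR replicate 1 the value of HLA-DRB1 was -0.68 and without BtzR replicate 2 it was -0.96, and the call was lost in both. Of 25 tested interferon-stimulated genes only IFITM1 was called, and the list median was 0.15.

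Of 12 tested cancer-testis antigens MAGEB2 was called, at 4.42 and 4.28 FPKM in CfzR, 0.62 and 0.73 in BtzR and 9.24 and 10.2 in WT (1.68, adjusted p = 9.3e-09), so that both sublines lay under the parent. The list median was 0.16. MAGEC1 was higher in CfzR (0.54, adjusted p = 0.001) and PAGE5 lower (-0.81, adjusted p = 0.009), both under the fold threshold. Across the 21 gene lists, which include that taken from the study, no list had more than 3 called members. The medians ran from -0.27 for HLA class II to 0.42 for cholesterol synthesis. Over all tested genes 1.15% were called higher in CfzR and 0.658% lower. The counts in these small lists were not tested against those shares.

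**Figure D5:**
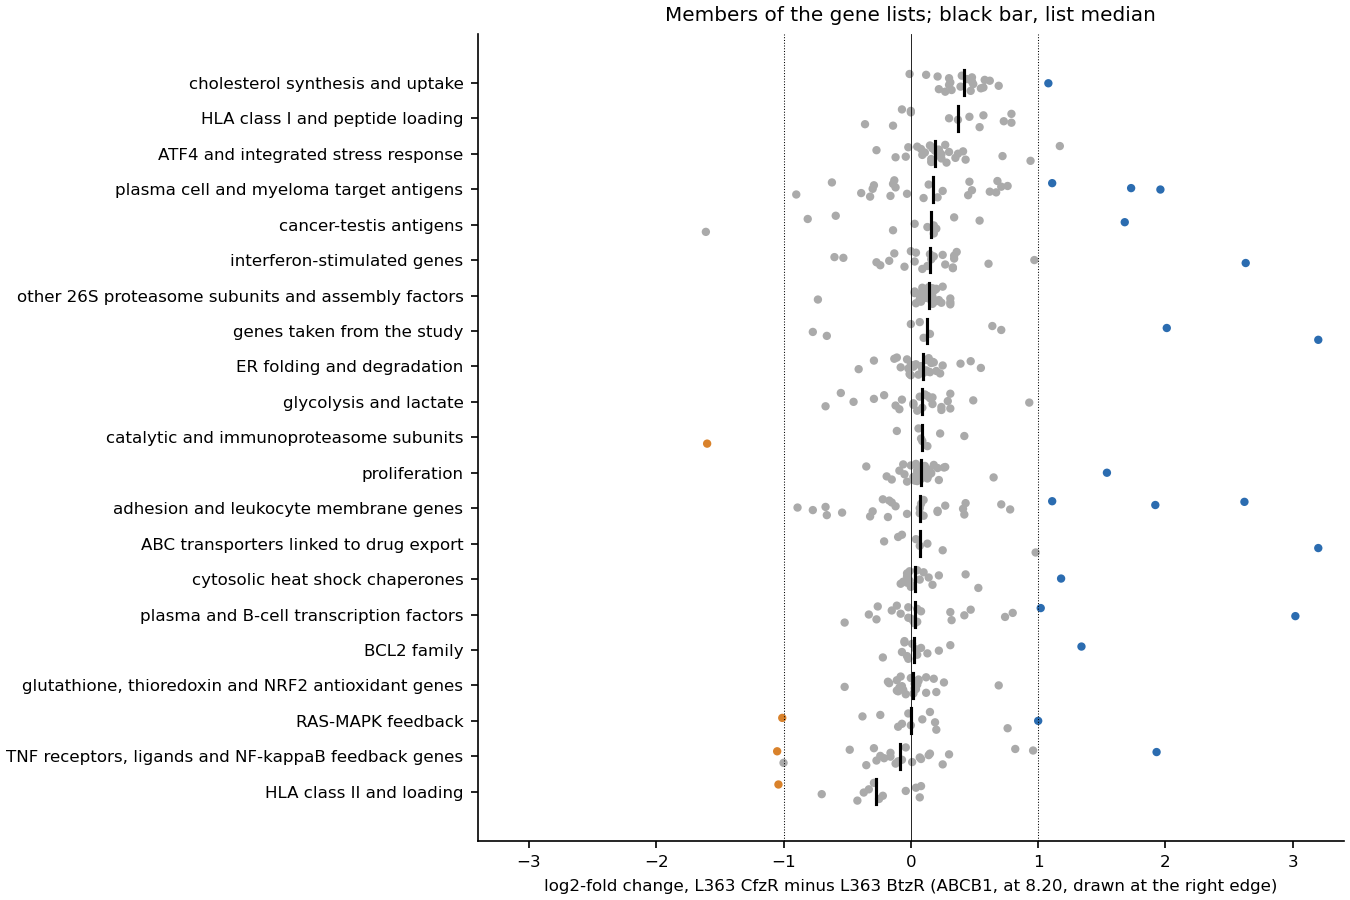
Each point is a tested member of a gene list, placed by its log2-fold change of CfzR over BtzR on the x axis (blue, called higher; orange, called lower; grey, not called), with a black bar at the list median. List medians lie between -0.27 and 0.42, and the calls are single genes at the edges of their lists.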

How the data were processed

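RNA of 20 libraries was extracted and sequenced by BGI (BGISEQ-500), and the authors deposited FPKM values for 18305 genes with NCBI gene IDs. The submitters' processing notes list HISAT2 2.0.4, Bowtie2 2.2.5 and RSEM 1.2.12. The genome build is not given in the sources used here, so no gene positions are printed apart from those of RefSeq promoter windows. RefSeq (GRCh38.p14) gave names and gene order for 18261 IDs. FPKM carry no counts, so the depth is unknown and no count test was run. The 2 replicates per group limit the precision. Zeros are given as listed. In 25 symbols a date format left by a spreadsheet was restored.

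The deposited FPKM values were transformed as log2(FPKM + 1) and fitted in limma 3.58.1 (R 4.3.3) with a mean for each of 10 groups over all libraries (10 residual degrees of freedom) and a mean-variance trend. All p-values are adjusted over the 10793 tested genes. With 2 against 2 libraries an exact permutation test cannot give a two-sided p below 0.33, so none was run. Tested on simulated data for this comparison with 10674 tested genes, the fit recovered 100 of 100 genes at a log2-fold change of 1.5. It recovered 100 of 100 at 3 and called 0 unchanged genes. The changed genes were drawn from those with a mean of at least 5 FPKM in BtzR, and the simulated noise was independent and normal. Recovery of genes under 5 FPKM in BtzR, among them ABCB1, LY6H and KLF2, was not tested. Nor was recovery at log2-fold changes closer to the threshold of 1. Tables and figures were made with Python 3.11.15.

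Genes named were the 15 largest called differences in each direction with libraries that do not overlap (leaving out Y-linked genes, XIST and immunoglobulin and T-cell receptor segments). Called members of 21 gene lists and 6 marker lists, and up to 4 members of a list without calls, were also named. The 21 include the list of 14 genes taken from the study's text and figures, of which all tested members were named. Block members and others were named after their values were seen. The comparison, lists and genes were chosen with earlier results of these data known, and the rule for the blocks after their values were seen. Alternatives were other pseudocounts, filters, scalings, spread estimates, a replicate block and leaving out each library.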

Additional observations from a re-analysis of the deposited data

Results flagged for a closer look

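The 2 libraries labelled AMO1 CfzR, which enter no comparison here, were both above 2 times the level of every AMO1 WT, L363 WT and L363 BtzR library for 3 of the 15 genes with the largest difference toward L363 CfzR. Their mean was 675.9 FPKM for ABCB1, 253.7 FPKM for IFITM1 and 0.71 FPKM for EFEMP1. The EFEMP1 mean is under the 1 FPKM used to filter genes. How many of all tested genes lie above these levels in the same way was not counted. The rest of the 15 did not, among them LY6H at 1.27 and 4.29 FPKM and S1PR1, listed at 0 in both libraries. These libraries resemble L363 more than AMO1 in their other genes, so their label was not used to draw a direction, and the cause was not tested.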

How the results depend on the processing

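The counts of 124 genes called higher and 71 called lower in CfzR moved past 1.5 times under few settings. A pseudocount of 0.1 FPKM gave 188 and 118, and a filter of 5 FPKM gave 74 higher. Leaving out each library in turn gave 108 to 138 higher and 61 to 80 lower. The replicate block gave 125 and 71. The labels number the replicates but state no pairing, and the deviations of same-numbered libraries correlated at 0.208 across genes over 2 pairs, too few to pair them. Of 47 called genes named, 37 lost their call under none of the 15 alternatives in which they were tested, and none reversed. Under the 5 FPKM filter some of the 37 were not tested, among them MME, ITGB5, BIK and MAGEB2, and this was not counted as a loss. Over all called genes, 73 of 124 higher and 46 of 71 lower held under every alternative but the 5 FPKM filter, which was left out of this count. The 10 other named genes, CDKN1A, HLA-DRB1, HSPA1A, INSIG1, JUN, PHLDA1, SELPLG, SPIB, SSX4B and TNFRSF21, each lost the call without at least 1 library. Processing choices also cost calls. HLA-DRB1, HSPA1A and SSX4B lost theirs at both smaller pseudocounts, and CDKN1A, HSPA1A, INSIG1 and SSX4B without a filter. JUN and SPIB lost theirs when libraries were rescaled to the same sum, and TNFRSF21 when they were quantile normalized. A running median of 7 genes, chosen after seeing the data, gave 7 blocks in place of 6, adding MEST to CHCHD3 on chromosome 7. The median over all genes was -0.01, and -0.04 and -0.02 under the rescalings, which turned the near-0 medians of the BCL2, RAS-MAPK, heat shock and NRF2 lists. Only RNA of 2 libraries per subline was measured, and depth is unknown.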

Other observations

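Several called genes have near-identical copies between which reads may have been divided, and their values are given without a direction for the family. CTAG1A was at 4.09 and 3.15 FPKM in L363 CfzR and listed at 0 in BtzR, while its copy CTAG1B was listed at 0 in CfzR and at 2.18 and 1.94 in BtzR. SSX4B was at 4.42 and 4.09 in BtzR and 0.58 and 0.42 in CfzR, with SSX4 listed at 0 in all 4 libraries. TUBA3C was at 4.91 and 5.05 in BtzR and 0.15 and 0.13 in CfzR, while TUBA3D lay between 0.49 and 0.88. MAGEA9B was at 4.11 and 5.01 in CfzR and 0.59 and 1.06 in BtzR.

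Some genes outside the lists were also called, and were chosen after their values were seen. MET, the receptor of hepatocyte growth factor, was at 7.53 and 8.02 FPKM in CfzR, 1.17 and 1.46 in BtzR and 1.47 and 1.40 in WT. APP, the amyloid precursor protein, was at 3.34 and 4.02 in CfzR and 0.07 and 0.11 in BtzR. ITM2C was at 117 and 152 in CfzR, 30.5 and 34.1 in BtzR and 184 and 146 in WT, and EIF3M, a translation initiation subunit, at 138 and 134 in CfzR against 62.1 and 59.9 in BtzR, with 148 and 139 in WT. Lower in CfzR were BCOR, a transcriptional corepressor on the X chromosome (5.48 and 4.94 against 17.3 and 14.5), and LCP2, an adaptor of antigen receptor signalling (4.98 and 5.26 against 16.4 and 18.5).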
